A study of Homo sapiens with 18 samples.

Results

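The comparison described here asks where a growth factor and the loss of a single adhesion gene change the messenger RNA of the same lung cancer cells differently. It is a difference of effects: the change under TGFB1 (TGFB1-treated minus parental cells) minus the change under a short hairpin RNA against CDH1 (shCDH1 minus non-target hairpin cells, shNT). It uses 12 of the 18 arrays of the series, chosen by their labels, in 4 groups of 3 arrays. The other 6 arrays enter the normalization, the choice of probe and the shared estimate of spread, but no group mean of the comparison. All cells are HCC827, a human lung adenocarcinoma line with a mutant EGFR gene. Parental and TGFB1-treated cells carry no virus. Both hairpin groups were infected with a pLKO1 lentivirus, so a virus and its selection are part of one effect's control and not of the other's. The sample labels describe TGFB1 treatment for 30 days, but the series design describes 10 ng/mL for 72 hours. A single hairpin design is named for each hairpin group. Titles number the arrays 1 to 3 and descriptions number them 1, 1 and 2, and nothing says that they are separate cultures, so p-values measure a spread between arrays that may be technical.

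TGF-beta ligands bind a pair of receptor kinases that phosphorylate SMAD proteins, which enter the nucleus and switch genes together with other factors. In epithelial cells this can start an epithelial to mesenchymal transition (EMT), in which cells give up junctions and polarity and gain matrix, protease and motility genes. CDH1 encodes E-cadherin, the adhesion receptor of epithelial adherens junctions. Its cytoplasmic tail binds catenins and links neighbouring cells to actin, and its removal is itself used as a model of EMT.

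Levels below are normalized log2 intensities, and an effect is a log2 difference ± SE from one linear model with 3 arrays per group. A gene was called at a Benjamini-Hochberg adjusted p below 0.05 over all 20046 genes in limma's moderated test, two-sided. A difference is termed higher when the signed TGFB1 effect exceeded the signed hairpin effect, and lower in the opposite case. Median raw intensity of the 12 arrays ran from 152 to 236, with TGFB1 arrays 1 and 2 the dimmest (154 and 152). Across probes, r was 0.989 to 0.994 within a group and 0.946 to 0.989 between groups, and every array was closest to one of its own group. The array-wide median level was 6.82. Detection was not assessed, so folds that start or end below that level rest on signal near background.

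CDH1, the target of the hairpin, was lower in the cells labelled for it. The CDH1 probe read 13.04, 13.06 and 13.00 in parental cells, 12.78, 12.61 and 12.67 under TGFB1, 13.02, 13.04 and 12.94 in shNT cells, and 8.82, 8.84 and 8.14 in shCDH1 cells. The 3 shCDH1 arrays lay far below the other 9, which ran from 12.61 to 13.06. The difference of effects was 4.05 ± 0.17 (adjusted p = 3.63e-16). The epithelial markers EPCAM, KRT8, KRT18 and KRT19 stood above the array-wide median in all 4 groups, with the lowest mean being 10.72 for KRT18 under TGFB1.

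CDH2 and VIM, hallmark mesenchymal genes, rose by amounts that the model did not separate. CDH2, which encodes N-cadherin, read 6.41, 6.26 and 6.40 in parental, 11.23, 11.20 and 11.06 in TGFB1, 8.31, 8.07 and 8.14 in shNT, and 12.90, 12.84 and 12.73 in shCDH1 cells. Its effects were 4.81 and 4.65, and the difference was 0.16 ± 0.14 (adjusted p = 0.482). The shCDH1 level was nonetheless above the TGFB1 level, because shNT cells already stood 1.82 above parental cells, so on one common control the value was -1.66. With a floor and log2 alone it was called at -0.96 (limma adjusted p = 0.0217), and with a normexp offset of 16 it was called the other way (0.74, adjusted p = 0.000566 in limma). The parental CDH2 mean of 6.36 was below the array-wide median, so its TGFB1 effect starts near background. A difference that is not called does not show equal effects. VIM, which encodes the intermediate filament vimentin, rose by 2.99 and 2.90, a difference of 0.09 ± 0.16 (adjusted p = 0.75). SNAI1, which encodes the repressor SNAIL, differed by 0.42 ± 0.20 from levels near background and was not called.

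Across the transcriptome the effects diverged widely. Of 20046 genes, 6042 were called in the difference of effects (30.1%), 3007 of them higher (15.0%) and 3035 lower (15.1%), and 2051 were called and differed by at least 1 log2 unit (10.2%). The all-gene median was -0.01 and the median SE 0.18. The share of higher calls depends on scaling: it was 49.8% here, 19.4% with no normalization between arrays, where the all-gene median moved to -0.28, and 13.0% with a floor and log2 alone, where it moved to -0.43. Directions are therefore relative to the bulk of genes.

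The called genes fell into classes by their single effects. The largest class, 2064 genes (10.3% of those tested), had a called hairpin effect and no called TGFB1 effect. Another 1561 genes (7.79%) had a called TGFB1 effect alone. In 1084 genes (5.41%) both effects were called with opposite signs: 566 (2.82%) rose under TGFB1 and fell under the hairpin, and 518 (2.58%) did the reverse. A further 1054 genes (5.26%) moved the same way under both but by different amounts, with the hairpin effect larger in 614 and the TGFB1 effect larger in 440. In 279 genes (1.39%) neither single effect was called. Conversely, 3604 genes were called in both effects, 2520 of them with one sign, and for 1466 of those the difference was not called.

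**Figure D1:**
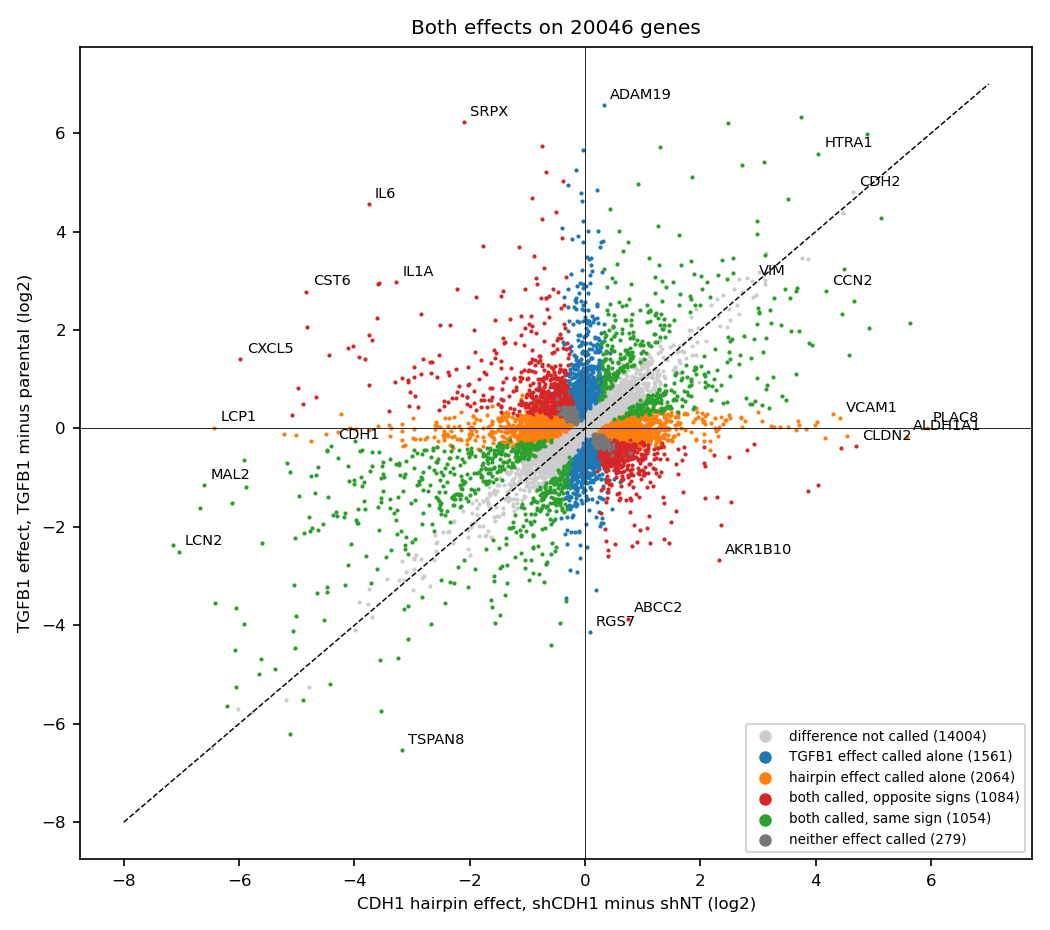
Each point is 1 of 20046 genes, with the hairpin effect on the horizontal axis and the TGFB1 effect on the vertical axis (both log2), coloured by class; the dashed line marks equal effects. CDH2 and VIM lie on the line, whereas SRPX, IL6 and CXCL5 lie in the upper left, where TGFB1 raised and the hairpin lowered a gene.

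The largest higher differences were mostly genes that moved in opposite directions against their own controls: 10 of the 12 largest stood in the opposite class. For most of the 12, shNT cells stood above parental cells, by called gaps of 0.78 (CXCL1) to 2.16 (DEFB103A). The exceptions were CGB5, LCP1, IL1A and ADAM19, where that gap was not called. SRPX, a secreted sushi-repeat protein, read 6.60, 6.43 and 6.65 in parental, 12.78, 12.69 and 12.87 in TGFB1, 8.46, 8.54 and 8.28 in shNT, and 6.42, 6.30 and 6.26 in shCDH1 cells. The TGFB1 arrays were the highest and the shCDH1 arrays the lowest, with a difference of 8.33 ± 0.15. The shCDH1 mean (6.33) was close to the parental mean (6.56), both below the array-wide median, and the shNT mean stood 1.87 above the parental mean. CST6, which encodes the protease inhibitor cystatin E/M, read 9.52, 9.54 and 9.59, then 12.30, 12.44 and 12.25, against 11.22, 10.90 and 11.39 in shNT and 5.95, 6.74 and 6.32 in shCDH1 cells (difference 7.61 ± 0.21). CNTNAP2, a neurexin-family adhesion gene, rose by 2.06 and fell by 4.82. FSTL1, a secreted follistatin-like protein, rose by 2.96 and fell by 3.57. CGB5, a chorionic gonadotropin beta gene with near-identical copies that a probe may share, rose by 5.74 and fell by 0.76. A second CGB5 probe gave a difference of 3.72, with a hairpin effect of -0.01 that was not called, so the fall rests on 1 probe. The defensin gene DEFB103A, which also has copies, rose by 2.94 and fell by 3.58.

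LCP1 and ADAM19 show the 2 ways in which one treatment alone moved a gene. LCP1, which encodes the actin-bundling protein L-plastin, read 13.18, 13.24 and 13.24 in parental, 13.41, 13.09 and 13.21 in TGFB1, 13.13, 12.97 and 13.05 in shNT, and 6.43, 6.69 and 6.73 in shCDH1 cells. The 9 arrays without the CDH1 hairpin ran from 12.97 to 13.41, and the hairpin effect was an 86.6-fold loss. ADAM19, a membrane metalloprotease, read 6.69, 6.18 and 6.64 in parental and 13.12, 12.97 and 13.10 in TGFB1 cells. In shNT cells it read 6.98, 6.39 and 6.52 and in shCDH1 cells 6.86, 6.95 and 7.07, groups that overlapped (hairpin effect 0.33 ± 0.15, adjusted p = 0.0991). The ADAM19 difference was 6.23 ± 0.21, and it was 3.10 when all probes of the gene were averaged.

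Among the 12 largest lower differences, 7 genes were in the opposite class and 4 had a called rise under the hairpin alone. PLAC8, a small cysteine-rich protein, read 6.37, 6.14 and 6.32 in parental, 5.98, 6.36 and 6.5 in TGFB1, 6.46, 7.10 and 6.44 in shNT, and 12.35, 12.62 and 12.79 in shCDH1 cells. Only the shCDH1 arrays stood above 7.10 (difference -5.92 ± 0.22). ALDH1A1, which encodes a retinaldehyde dehydrogenase, followed the same order, with 6.66, 6.58 and 6.52, then 6.54, 6.26 and 6.47, then 7.06, 7.24 and 7.29, and 12.96, 12.98 and 12.38 in shCDH1 cells (difference -5.74 ± 0.21). TCEA3, a transcription elongation factor, rose by 4.04 in shCDH1 cells and fell by 1.15 under TGFB1. INA, a neuronal intermediate filament gene, likewise rose by 4.44 in shCDH1 cells and fell by 0.39 under TGFB1, and TPPP3, a tubulin-binding protein, and NDP, a secreted Wnt receptor ligand, rose by 4.54 and 4.16 with TGFB1 effects of -0.16 and -0.19 that were not called. RGS7, a regulator of G protein signalling, was the exception among the 12: it fell by 4.14 under TGFB1, with a hairpin effect of 0.08 that was not called. Of these 24 largest differences, 19 had at least 1 group mean below the array-wide median. Probe choice set the size of some values: with all probes of a gene averaged, 26 of the 147 called named genes had a difference over 1.5 times smaller. Those described here besides ADAM19, LAD1 and ERBB3 were TPPP3 (-2.74), JUP (1.68), FOXA2 (-1.02), TAGLN (1.63), LTBP4 (0.70), LTBP3 (-0.43), CDKN1A (2.39), GAS6 (1.56), BCL2 (-0.86), VEGFA (1.62) and AKR1C2 (-0.39).

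**Figure D2:**
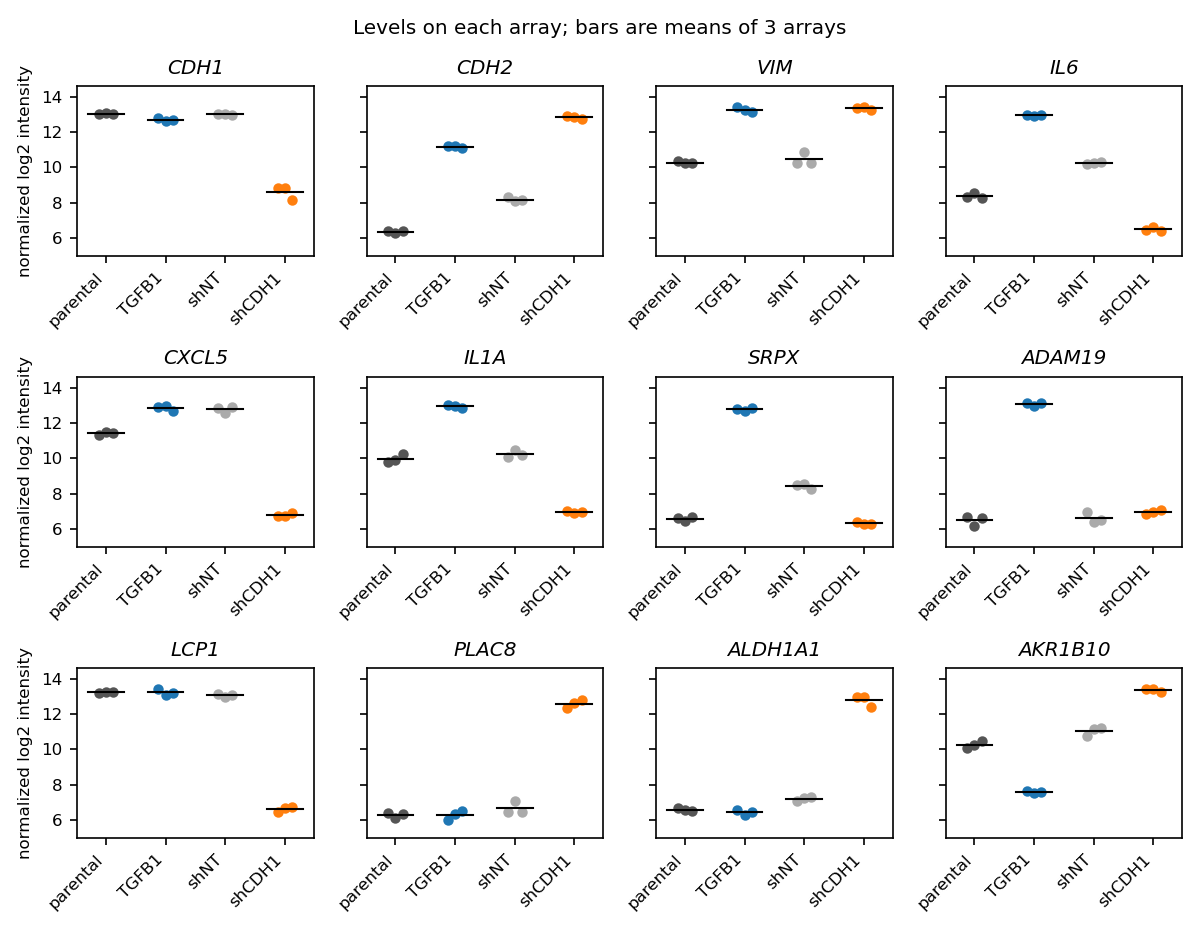
Normalized log2 intensity of 12 genes on each of the 12 arrays, by group, with a bar at the mean of 3 arrays. CDH2 and VIM rise in both treated groups, IL6, CXCL5, IL1A and SRPX separate them, and PLAC8 and ALDH1A1 are high in shCDH1 cells alone among these groups.

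Inflammatory cytokines were often raised by TGFB1 and lowered by the hairpin. NF-kB is a family of transcription factors held inactive by inhibitor proteins until receptors such as those of IL1 and TNF signal, and it drives chemokine, cytokine and feedback genes. Of 33 measured genes in the NF-kB and cytokine list, 24 were higher, 2 lower and 7 not called, against 30.1% called among all genes. The list's median difference was 0.90 and stayed positive under every alternative (0.44 to 1.27), and 11 members were in the opposite class, against 5.41% of all genes. TGFB1 raised 17 and lowered 5 members, and the hairpin raised 3 and lowered 20.

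IL6, an inflammatory cytokine, read 8.31, 8.53 and 8.29 in parental, 12.95, 12.90 and 12.96 in TGFB1, 10.20, 10.25 and 10.32 in shNT, and 6.47, 6.65 and 6.41 in shCDH1 cells. The 4 groups did not overlap, and the effects were 4.56 and -3.75. CXCL5, a neutrophil-attracting chemokine, read 11.32, 11.51 and 11.45 in parental, 12.92, 12.94 and 12.66 in TGFB1, 12.85, 12.57 and 12.89 in shNT, and 6.74, 6.73 and 6.91 in shCDH1 cells. TGFB1 and shNT arrays overlapped at the top, so its difference of 7.39 ± 0.16 came mostly from the fall in shCDH1 cells, and a second CXCL5 probe gave 8.28. IL1A, an alarm cytokine of the IL1 family, read 9.77, 9.88 and 10.25, then 13.00, 12.96 and 12.85, against 10.05, 10.48 and 10.17 in shNT and 7.0, 6.92 and 6.94 in shCDH1 cells. Parental and shNT arrays overlapped, TGFB1 lay above and shCDH1 below (difference 6.24 ± 0.18).

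The chemokines CXCL1, CXCL2, CXCL6 and CXCL8 were also in the opposite class, with rises of 1.5, 1.89, 1.80 and 0.89 under TGFB1 and falls of 4.44, 3.74, 3.70 and 3.74 under the hairpin. CXCL3, of the same family, was not called (-0.16). These chemokine genes are close relatives, and whether a probe reads a neighbour was not tested. The feedback inhibitors TNFAIP3 and NFKBIA and the subunit gene NFKB1 were also in the opposite class, by smaller amounts (differences of 1.97, 0.66 and 0.79). Other members followed other courses. IL11, a cytokine of the IL6 family, and CCL2, a monocyte chemokine, rose by 5.67 and 5.04 under TGFB1, with hairpin effects of -0.03 (not called) and -0.38. IL1B fell by 3.17 under the hairpin, with a TGFB1 effect of -0.23 that was not called. CCL20, a lymphocyte chemokine, fell under both, by 2.07 and 4.62. VCAM1, a leukocyte adhesion receptor that NF-kB can induce, went the other way: it read 6.01, 5.99 and 5.94 in shNT and 10.58, 10.44 and 10.16 in shCDH1 cells, with a difference of -4.20 ± 0.22.

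**Figure D3:**
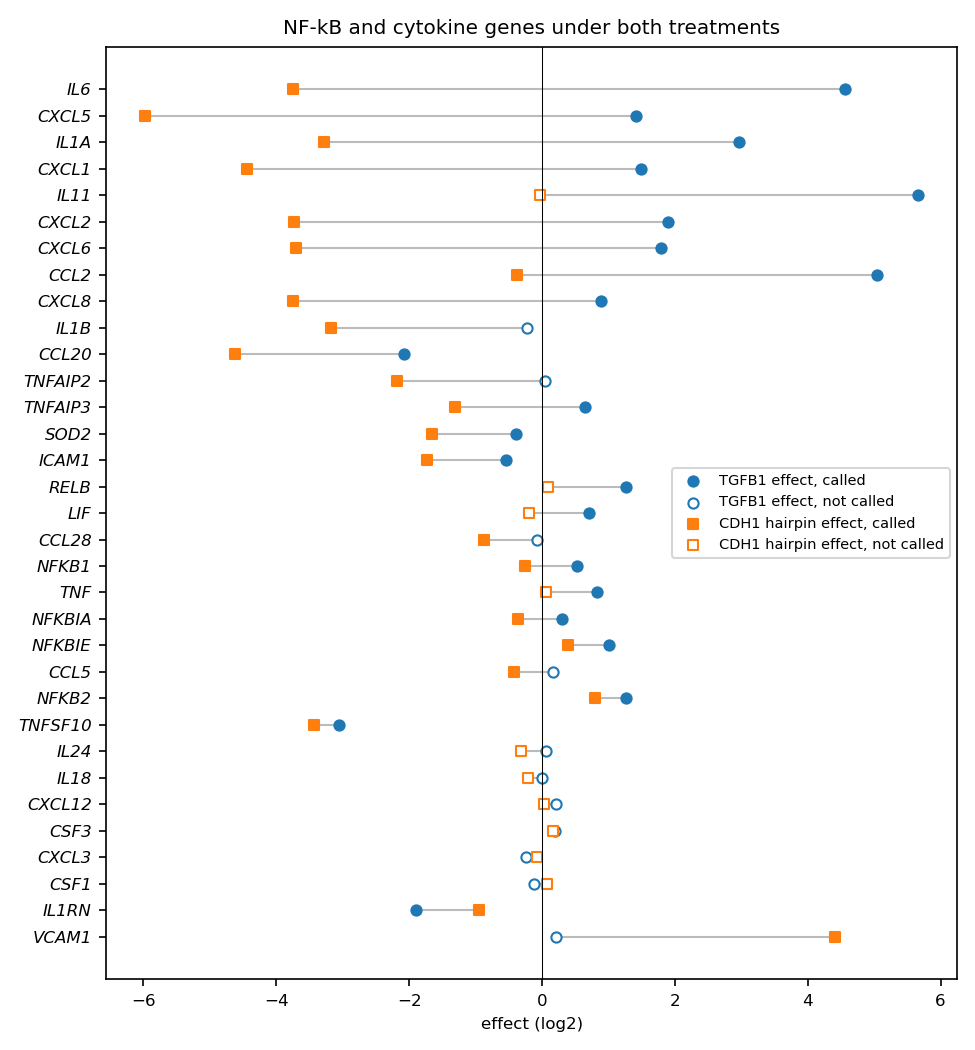
TGFB1 effect (circles) and hairpin effect (squares) in log2 for the 33 measured NF-kB and cytokine genes, ordered by their difference; open symbols were not called. 11 genes have filled symbols on opposite sides of 0, and VCAM1 at the bottom has the reverse order.

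Promoters of 4 of these cytokine genes are shown because they share one short motif near the gene start. The sequences are RefSeq's on GRCh38.p14, 300 bases around each gene's start, and run 5′ to 3′ on the gene's strand. Capitals mark matches to GGNNTTTCC on either strand, a simplified form of the NF-kB site, and matches may overlap one another. IL6 lies at chr7:22726950-22727249 (+), CXCL1 at chr4:73869143-73869442 (+), CXCL5 at chr4:73998628-73998927 (-) and CXCL8 at chr4:73740319-73740618 (+).
IL6: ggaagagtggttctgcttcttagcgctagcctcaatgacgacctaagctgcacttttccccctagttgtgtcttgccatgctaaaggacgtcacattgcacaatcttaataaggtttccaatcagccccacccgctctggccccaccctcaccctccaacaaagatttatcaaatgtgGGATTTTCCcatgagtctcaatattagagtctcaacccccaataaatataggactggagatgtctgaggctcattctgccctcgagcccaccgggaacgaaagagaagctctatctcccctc
CXCL1: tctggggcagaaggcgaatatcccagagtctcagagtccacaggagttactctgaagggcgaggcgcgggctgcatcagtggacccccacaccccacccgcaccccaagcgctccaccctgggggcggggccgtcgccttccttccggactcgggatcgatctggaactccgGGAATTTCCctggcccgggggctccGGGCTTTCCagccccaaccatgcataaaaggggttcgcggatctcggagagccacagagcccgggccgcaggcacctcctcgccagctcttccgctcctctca
CXCL5: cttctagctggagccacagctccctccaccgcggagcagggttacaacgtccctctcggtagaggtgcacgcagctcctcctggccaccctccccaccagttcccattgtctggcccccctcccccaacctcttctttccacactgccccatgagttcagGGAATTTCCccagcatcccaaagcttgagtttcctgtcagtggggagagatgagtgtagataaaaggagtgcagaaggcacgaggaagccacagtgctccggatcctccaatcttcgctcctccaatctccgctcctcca
CXCL8: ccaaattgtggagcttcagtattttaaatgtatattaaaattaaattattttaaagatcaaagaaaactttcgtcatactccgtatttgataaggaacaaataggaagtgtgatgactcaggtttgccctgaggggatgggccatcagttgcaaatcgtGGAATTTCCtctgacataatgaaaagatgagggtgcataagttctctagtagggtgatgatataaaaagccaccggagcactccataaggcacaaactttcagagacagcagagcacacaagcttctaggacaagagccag
The IL6 match spans bases -72 to -64 and the CXCL8 match -91 to -83, counted from the gene start. Of 15034 tested genes with a promoter in the table, 6.64% held this motif. In the cytokine list, 25 members had a promoter there and 14 held the motif: 9 of the 10 in the opposite class and 5 of the other 15. CXCL3, which was not called, and VCAM1, whose effects ran in the reverse order, also held it, and IL1A did not. The list was written as NF-kB and cytokine genes with earlier results known, so a motif share above that of all genes is partly built in. The classes come from the same differences, and many of the chemokine genes are close relatives on chromosome 4. Their promoters are therefore not independent, and what the split between classes means was not tested. A match is a run of letters and does not show binding.

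Targets of TGF-beta and SMAD proteins were the list with the largest TGFB1 median (1.39), beside a hairpin median of 0.25. Of 34 measured targets, 23 were higher, 6 lower and 5 not called, with a median difference of 0.98 (0.54 to 1.25 over the alternatives). TGFB1 raised 26 and lowered 2, and the hairpin raised 15 and lowered 11. Several members are matrix or cytokine genes described elsewhere here. PMEPA1, a feedback inhibitor of the pathway, read 9.47, 9.09 and 9.12 in parental, 12.99, 13.01 and 12.73 in TGFB1, 9.47, 9.12 and 9.17 in shNT, and 8.11, 7.89 and 8.32 in shCDH1 cells. The control groups overlapped, with TGFB1 above and shCDH1 below. CDKN1A, which encodes the cell cycle inhibitor p21, rose by 2.80 and fell by 1.42, and SMAD7, another feedback inhibitor, rose by 1.25 with a hairpin effect of 0.20 that was not called. Targets that rose more under the hairpin included CCN2, which encodes connective tissue growth factor (2.78 against 4.18), and TNFAIP6, a hyaluronan-binding protein (3.25 against 4.50).

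The pathway's own ligands, receptors and carriers divided. Of 26, 9 were higher, 4 lower and 13 not called, and the median difference of -0.08 turned to 0.28 when both treated groups were set on one common control. LTBP2 and LTBP4, binding proteins that store latent ligand, rose under TGFB1 (differences 2.86 and 1.45), while LTBP3 rose only under the hairpin among the called effects (difference -1.19). TGFBR3, a coreceptor, rose under both, by 2.34 and 3.02. Among 19 BMP and ID genes 7 were higher and 5 lower. The target ID1, an inhibitor of helix-loop-helix factors, read 12.62, 12.40 and 12.38 in parental and 9.82, 10.15 and 9.74 in TGFB1 cells, and fell by 0.59 under the hairpin. BMP4, a ligand, rose by 2.25 under the hairpin with a TGFB1 effect of 0.02 (not called).

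Matrix and protease genes leaned towards TGFB1. Of 37 extracellular matrix genes, 19 were higher and 5 lower, with a median of 0.45 that fell to -0.11 with a floor and log2 alone. BGN, a small proteoglycan, read 11.71, 11.71 and 11.63 under TGFB1 and between 6.66 and 7.12 on the other 9 arrays. COL6A3, COL5A1 and COL7A1, collagen chains, had differences of 4.02, 3.73 and 2.96, and LAMB3, a laminin chain of epithelial basement membranes, rose by 1.54 and fell by 1.90. Other matrix genes rose more in shCDH1 cells: SPARC, a collagen-binding protein (1.99 against 3.58), LUM, a proteoglycan (1.97 against 3.71), and FBN2, a fibrillin (-0.31 against 2.93). For 22 matrix proteases and inhibitors, 13 were higher and 2 lower, with a median of 0.80 (0.24 to 1.23). MMP9, a gelatinase, read 11.95, 11.71 and 11.67 under TGFB1 and 7.05 or less on the other 9 arrays. PLAUR, the urokinase receptor, rose by 0.94 and fell by 3.29. HTRA1, a secreted serine protease, rose under both, by 5.59 and 4.04.

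Mesenchymal cytoskeleton genes were called in the difference more often than all genes (58.1% beside 30.1%). Of 31, 15 were higher, 3 lower and 13 not called, 7 of them in the opposite class. TAGLN, which encodes the actin-binding protein transgelin, read 10.34, 10.46 and 10.10 under TGFB1 and 6.68, 6.65 and 6.90 in shCDH1 cells, with parental and shNT arrays between 7.25 and 7.64. ITGA5, the fibronectin receptor subunit, rose by 2.52 and fell by 0.37, and ACTA2, smooth muscle actin, rose by 0.69 and fell by 0.77. S100A4, a calcium-binding protein often used as a mesenchymal marker, ran the other way: it read 9.81, 9.77 and 9.93 in parental, 8.28, 8.56 and 8.46 in TGFB1, 8.54, 8.70 and 8.94 in shNT, and 10.95, 10.95 and 10.55 in shCDH1 cells. Among 17 EMT transcription factors 4 were higher and 2 lower, a called share of 35.3% beside 30.1% for all genes. SNAI2 and ZEB2, repressors of CDH1, rose by 2.97 and 2.37 under TGFB1 and by 0.52 and 1.09 under the hairpin, while SOX9 rose by 1.83 and 3.13. SOX4 was called lower (-1.27 ± 0.47, adjusted p = 0.0428), but its shNT arrays spread widely: the value was -0.64 (adjusted p = 0.175) without shNT array 1 and 0.56 on one common control.

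Epithelial genes were lost more deeply by the hairpin at several loci and more deeply under TGFB1 at others. Of 35 epithelial identity and keratin genes, 18 were higher, 12 lower and 5 not called. TGFB1 lowered 24 and raised 1, and the hairpin lowered 25 and raised 1, so a higher difference here mostly means a smaller fall. The list's median of 0.50 turned to -0.04 with no normalization and to -0.26 with a floor and log2 alone. MAL2, a protein of apical transport, read 12.97, 12.82 and 12.72 in parental, 11.83, 11.57 and 11.63 in TGFB1, 12.82, 12.76 and 12.76 in shNT, and 6.10, 6.22 and 6.19 in shCDH1 cells. LCN2, the secreted lipocalin, fell by 2.51 and 7.05. The genes that stayed high under TGFB1 and fell in shCDH1 cells included EPCAM (effects -0.22, not called, and -2.78), LAD1, an anchoring filament protein, and CDS1, a phospholipid enzyme. LAD1 read 13.17, 13.12 and 13.05 under TGFB1, overlapping the parental arrays (13.06 to 13.30), and 8.0, 8.02 and 7.90 in shCDH1 cells. A second LAD1 probe, nearer background, fell under TGFB1 too, by 0.95, with a difference of 0.78, and the mean of all LAD1 probes gave 1.16. Among 9 keratins, 6 were lower and 3 higher (KRT7 1.02, KRT5 0.67 and KRT23 0.50). KRT8 and KRT18 fell by 1.66 and 1.15 under TGFB1, with hairpin effects of -0.41 and -0.25, the second not called. TSPAN8, a tetraspanin, fell by 6.53 and 3.18, and CEACAM5, an adhesion protein, by 2.76 and 0.68.

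LAD1 and CDS1 are the 2 members of the epithelial list with the largest differences whose tabulated promoter held CAGGTG, the E-box bound by SNAIL and ZEB repressors (shown with its complement CACCTG in capitals). They lie at chr1:201399275-201399574 (-) and chr4:84582877-84583176 (+) on GRCh38.p14, from RefSeq.
LAD1: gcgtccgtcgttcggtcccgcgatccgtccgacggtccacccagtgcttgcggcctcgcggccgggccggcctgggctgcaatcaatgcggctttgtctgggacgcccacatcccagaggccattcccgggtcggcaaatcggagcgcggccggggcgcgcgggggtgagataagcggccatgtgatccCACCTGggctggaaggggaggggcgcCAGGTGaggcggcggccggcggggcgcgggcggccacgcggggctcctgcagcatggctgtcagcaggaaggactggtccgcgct
CDS1: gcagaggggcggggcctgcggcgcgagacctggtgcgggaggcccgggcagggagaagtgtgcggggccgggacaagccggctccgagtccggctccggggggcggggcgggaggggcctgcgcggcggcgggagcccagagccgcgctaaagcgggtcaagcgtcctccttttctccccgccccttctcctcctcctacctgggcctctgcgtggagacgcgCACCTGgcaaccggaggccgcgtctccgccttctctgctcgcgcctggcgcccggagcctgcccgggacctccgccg
Of the 22 list members with a promoter in the table, 12 held this E-box on either strand, against 19.6% of the 15034 tested genes with one. The 12 include genes with higher, lower and no called difference. On the probes used, the TGFB1 effects of LAD1 and CDS1 (-0.10 and -0.14) were not called. The epithelial list, too, was written with earlier results known, and what its motif share means was not tested. A match to the E-box does not show binding.

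Junction genes showed the contrast at single members. Among 17 cadherins and catenins, 4 were higher and 1 lower, a called share of 29.4% beside 30.1% for all genes. CDH3, which encodes P-cadherin, read 12.39, 12.05 and 11.93 in parental, 10.66, 10.64 and 10.53 in TGFB1, 12.25, 12.12 and 12.23 in shNT, and 5.96, 6.11 and 6.15 in shCDH1 cells. JUP, which encodes plakoglobin, fell by 3.12 under the hairpin, with a TGFB1 effect of -0.33 that was not called. Of 20 tight junction and polarity genes, 9 were higher and 3 lower, and the median of 0.34 turned to -0.21 with a floor and log2 alone. CLDN1 rose by 1.64 under TGFB1 and fell by 0.28, whereas CLDN2, a claudin that forms cation pores, read 7.37, 7.35 and 7.57 in shNT and 12.26, 12.24 and 11.88 in shCDH1 cells, against a TGFB1 effect of -0.36. CLDN3 fell by 1.46 under TGFB1 alone. Desmosome genes gave 4 higher and 1 lower of 14 (35.7% called). Among 15 epithelial transcription factors, 5 were higher and 3 lower. FOXA1, a pioneer factor, read 12.01, 11.79 and 11.81 under TGFB1 and 7.11, 7.08 and 7.03 in shCDH1 cells, from 12.20 to 12.59 in both controls. Its relative FOXA2 had the opposite order, falling by 2.02 under TGFB1 and rising by 1.07 in shCDH1 cells, while its other probes, near background, were not called. NKX2-1, the lung lineage factor, fell by 0.77 and 4.11. The lung differentiation list had 6 higher, 3 lower and 17 not called of 26 (34.6% called).

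**Figure D4:**
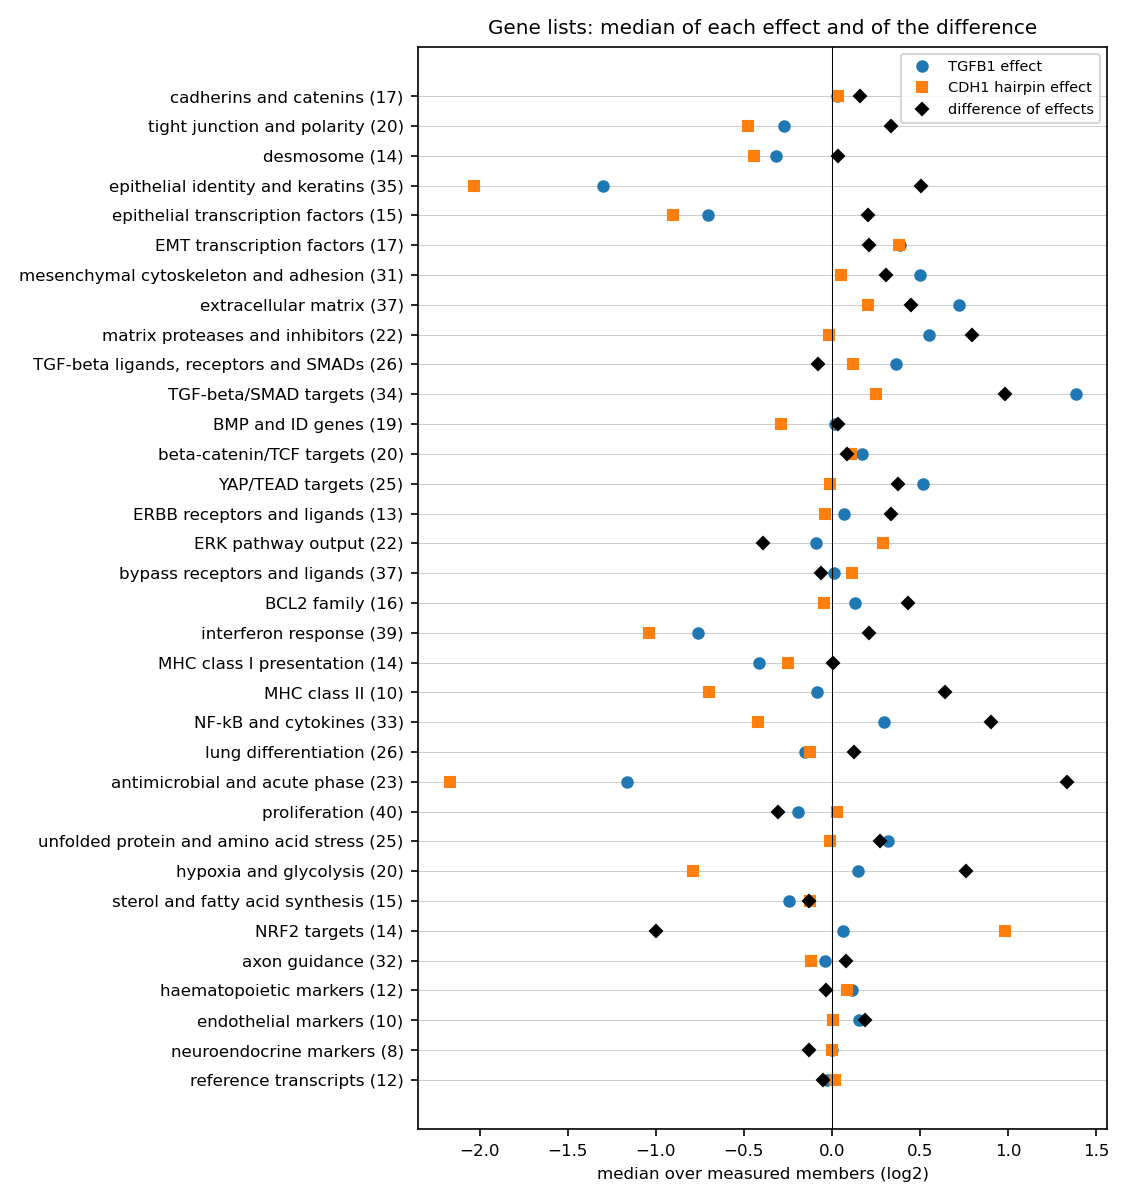
Median TGFB1 effect (circles), hairpin effect (squares) and difference of effects (diamonds), in log2, over the measured members of each of 34 gene lists (number in brackets). Antimicrobial genes, TGF-beta/SMAD targets, NF-kB genes, matrix proteases and hypoxia genes sit furthest to the right in the difference, and NRF2 targets to the left.

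NRF2 targets, which protect against oxidants and electrophiles, leaned to the hairpin. Of 14, 11 were lower, 1 higher and 2 not called, with a median difference of -1.0 (-1.53 to -0.78 over the alternatives). The hairpin raised 11 and lowered 1, and TGFB1 raised 4 and lowered 6. AKR1B10, an aldo-keto reductase, read 10.08, 10.24 and 10.45 in parental, 7.63, 7.52 and 7.61 in TGFB1, 10.75, 11.14 and 11.20 in shNT, and 13.41, 13.39 and 13.26 in shCDH1 cells. The close relative AKR1B15 gave a difference of -5.13, and whether its probe reads AKR1B10 was not tested. AKR1C2 rose under both, by 2.33 and 4.46. GCLM and GCLC, the subunits of the enzyme that starts glutathione synthesis, rose by 1.33 and 0.85 under the hairpin, with TGFB1 effects of 0.40 and -0.42. ABCC2, an efflux transporter, fell by 3.87 and rose by 0.74.

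Hypoxia and glycolysis genes were higher in 13 of 20 and lower in 1, with a median of 0.76 (0.22 to 0.83). The hairpin lowered 13 and raised 1, and TGFB1 raised 8 and lowered 2. VEGFA, a vessel growth factor, read 9.13, 9.04 and 8.65 in parental, 10.01, 9.81 and 9.71 in TGFB1, 9.24, 9.18 and 9.26 in shNT, and 7.14, 7.21 and 7.31 in shCDH1 cells. The glucose transporter gene SLC2A3 rose by 0.53 and fell by 2.38, and CA12, a carbonic anhydrase, was the lower one (0.58 against 2.19). Of 25 stress genes of the unfolded protein and amino acid responses, 10 were higher and 4 lower, led by PHGDH of serine synthesis (2.04 against -1.04), which stood 1.67 higher in shNT than in parental cells.

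Genes of growth factor signalling were called in both directions. Of 22 outputs of the ERK pathway, 5 were higher and 11 lower, with a median of -0.39. The largest lower difference was that of EMP1 (-2.65), which fell by 2.28 under TGFB1 and rose by 0.37 under the hairpin. The feedback phosphatase DUSP4, the feedback inhibitor SPRY4 and the immediate early factor FOS had differences of -2.31, -1.50 and -2.25, each with a rise under the hairpin. The chemokine CXCL8 and IER3 led the higher ones (4.63 and 3.62). Among 13 ERBB genes, 5 were higher and 2 lower. The receptor ERBB3 read 9.58, 9.73 and 9.76 under TGFB1, from 11.77 to 11.78 in parental cells, and 7.35, 7.29 and 7.45 in shCDH1 cells, from 11.99 to 12.24 in shNT cells. A second ERBB3 probe fell by 0.99 and 1.21, with a difference of 0.22 that was not called, and the mean of all its probes gave 0.96. The ligands TGFA and EREG had differences of 2.76 and -3.01. Of 37 bypass receptors and ligands 10 were higher and 8 lower. AXL, a receptor kinase, read 8.98, 9.15 and 8.80 under TGFB1 and 10.91, 10.93 and 11.02 in shCDH1 cells (difference -2.15 ± 0.20), whereas its ligand gene GAS6 rose by 2.85 under TGFB1, with a hairpin effect of -0.03 that was not called. FGF2 had a difference of 2.80. YAP/TEAD targets gave 12 higher and 3 lower of 25, with F3, which encodes tissue factor, at 1.34 against -2.65. Beta-catenin/TCF targets gave 4 higher and 2 lower of 20, a called share of 30.0% beside 30.1% for all genes. In the BCL2 family, 7 of 16 were higher and 3 lower, with BCL2L2 at 0.59 against -1.46 and BCL2 at -0.01 (not called) against 1.57.

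The controls also entered the difference. By arithmetic, the difference of effects equals the gap between the treated groups (TGFB1 minus shCDH1) plus the gap between the controls (shNT minus parental). The gap between treated groups was called for 37.8% of all genes. Among the 6042 genes called in the difference, it was called in the same direction for 4729 and in the opposite direction for 62, and was not called for 1251. The gap between controls was called for 2349 of them, against 20.8% of all genes.

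For interferon-stimulated genes, the antiviral response set, the gap between controls ran against the gap between treated groups. Both treatments lowered them against their own controls (31 of 39 fell and 1 rose under TGFB1, 28 fell and 0 rose under the hairpin), and 16 were higher, 12 lower and 11 not called in the difference. The median gap between controls was -1.21 and that between treated groups 1.58, beside a median difference of 0.21 (medians of a list do not add). OAS2, a double-stranded RNA sensor, read 11.79, 11.65 and 11.79 in parental, 10.11, 9.36 and 9.22 in TGFB1, 7.27, 7.09 and 7.05 in shNT, and 6.06, 6.05 and 6.56 in shCDH1 cells. All hairpin arrays were thus below all arrays without virus. The shCDH1 arrays of OAS2 lay below the array-wide median, so its fall under the hairpin is bounded by background. Whether this limit shaped the 12 lower calls was not tested. IFIT3, an antiviral effector, had a difference of -2.09 ± 0.35, and its shNT arrays spread widely (8.58, 10.02 and 8.87). BST2, which tethers budding virus, read 10.75 to 10.91 in shNT and 7.34 to 7.5 in shCDH1 cells, with a TGFB1 effect of 0.06 that was not called (difference 3.47 ± 0.14). The interferon median turned to -0.27 with no normalization, to -0.43 with a floor and log2 alone, and below 0 without the dim TGFB1 arrays.

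Antimicrobial and acute phase genes, secreted defence products of epithelia, had the largest list median of the difference, 1.33, with 15 of 23 higher and 1 lower. The median gap between treated groups was 0.13, and shNT cells stood above parental cells by a median of 0.52. S100A9, a calprotectin subunit, read 10.68, 10.78 and 10.73 in parental, 7.30, 7.70 and 7.67 in TGFB1, 12.85, 12.93 and 13.02 in shNT, and 7.94, 7.93 and 7.77 in shCDH1 cells. For S100A9 the treated groups ended within 1 log2 unit of each other and the controls began 2.20 apart. Other members had the reverse: the gap between treated groups was 4.43 for LCN2 and 3.84 for CFB, and that between controls 0.11 and -0.55. Over the list, 7 members were called higher and 2 lower in TGFB1 than in shCDH1 cells. In 5 of the 23, all 4 group means lay below the array-wide median. MHC class II genes resembled the antimicrobial list in their medians, which were 0.04 between treated groups and 0.78 between controls. Of 10 such genes, 5 were higher and 0 lower. HLA-DMB, a peptide-loading subunit, read 9.16, 9.32 and 9.37 in parental, 7.40, 7.39 and 7.68 in TGFB1, 11.12, 11.16 and 11.14 in shNT, and 6.94, 7.0 and 6.96 in shCDH1 cells. Of 14 class I presentation genes 3 were higher and 2 lower, a called share of 35.7% beside 30.1% for all genes. HLA-B, which a probe may share with other HLA genes, was at -0.99 against -3.88. Infection, selection and hairpin cannot be told apart in these gaps between controls.

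**Figure D5:**
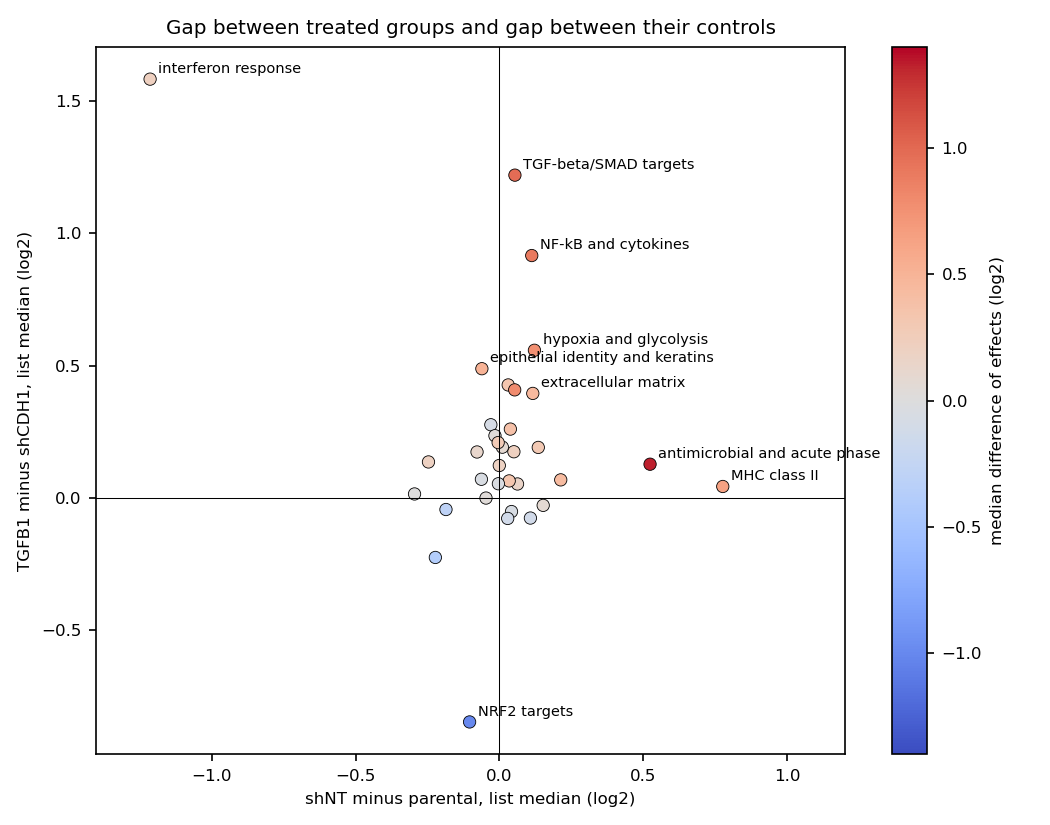
For each of 34 gene lists, the median gap between controls (shNT minus parental) is plotted against the median gap between treated groups (TGFB1 minus shCDH1), both log2, coloured by the median difference of effects. Interferon genes stand at -1.21 and 1.58, whereas antimicrobial and MHC class II genes stand to the right near 0 on the vertical axis.

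Of 40 proliferation genes, 4 were higher, 12 lower and 24 not called (40% called), with a median of -0.31 (-0.71 to -0.04). AURKB, a mitotic kinase, was at -0.33 against 0.72. Sterol and fatty acid synthesis gave 2 higher and 4 lower of 15 (40% called). Axon guidance genes gave 8 higher and 6 lower of 32 (43.8% called), with SEMA3A, a repulsive ligand, at -2.39 against 0.81. Reference transcripts gave 1 higher and 2 lower of 12 (25% called), the higher one being SDHA (1.00). Markers of other cell types were called for 4 of 12 haematopoietic (33.3%), 1 of 10 endothelial (10%) and 2 of 8 neuroendocrine genes (25%), beside 30.1% of all genes. The called ones were FCER1G (1.31), CD3D (0.80), CD68 (-0.43) and CD14 (-1.86), PECAM1 (0.76), and SCG3 (0.68) and SCG2 (-1.36), although CD3D, PECAM1 and SCG3 turned sign with a floor and log2 alone. The defining genes PTPRC, CDH5 and CHGA had differences of -0.05, -0.10 and -0.04, none of them called, and stood near or below the array-wide median in all 4 groups. The summed linear signal of the haematopoietic list was nonetheless higher in shCDH1 cells (9192 to 9415) than in shNT cells (6133 to 6793), beside 7049 to 7307 in parental and 7621 to 8256 in TGFB1 cells. A bright gene weighs heavily in such a sum: CD68 had a mean level of 12.62 over all 18 arrays and a hairpin effect of 0.64. The sum therefore does not show a rise across the list. The neuroendocrine list summed to 2297 to 3100 in shCDH1, 1220 to 1448 in shNT, 1692 to 2110 in TGFB1 and 1150 to 1188 in parental cells, and the endothelial list to 839 to 1055 over the 4 groups. Their part in the results was not tested.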

How the data were processed

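The deposited table holds 47323 probes on 18 Illumina bead arrays of biotinylated complementary RNA, per the labels. Its values are linear intensities that the authors deposited without a stated normalization, and array medians differ. Scanner, software and background step are not stated in the labels. From the table, 2 probes with a value of 0 were left out. With limma, background was modelled by normexp with an offset of 50, then log2 values of all 18 arrays were quantile normalized (limma 3.58.1, R 4.3.3). Symbols came from the platform annotation: 30113 probes had 1 symbol, 8 several, and 17202 were not listed. A gene is its probe with the highest mean (20046 genes, 6691 with several probes). One limma model of 6 group means with an intensity trend (12 residual degrees of freedom) gave all contrasts, with Benjamini-Hochberg adjustment at 0.05. The number of arrays limits the precision.

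Members and the 34 gene lists (766 symbols, 714 measured) were chosen with earlier results of these data known. Lists are described by counts and medians, with no set test. Counts of called members are to be read beside the 30.1% called among all genes. Genes named are CDH1, CDH2, VIM and SNAI1, the 12 largest called differences each way whose 3 TGFB1 and 3 shCDH1 arrays, each minus its control mean, did not overlap, the leading genes of the classes, and, per list, at most 4 called genes by size of difference. List members beyond those, and KRT8 and KRT18 as markers, were chosen after their values were seen. Alternatives changed scaling, background, filter, probe rule, moderation, arrays, control and replicate handling. The model was tested on simulated data.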

Additional observations from a re-analysis of the deposited data

How the results depend on the processing

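Of 150 named genes, 12 of 3743 values under alternatives reversed, and, those included, 88 lost a call and 4 gained one; the cause was not tested. With a floor and log2 alone, reversals were CDH2 (-0.96), PKP2 (-0.025), LEF1 (-0.027), CD3D (-0.028), PECAM1 (-0.016) and SCG3 (-0.11). With one common control they were CDH2 (-1.66), SOX4 (0.56), NKD2 (-0.19), CD74 (-0.044), HOPX (0.043) and DDIT3 (-0.056). Leaving out each of the 12 arrays in turn gave 5422 to 6252 called genes and 893 to 1204 in opposite directions. Averaging arrays that share a description number gave 4974 called genes and 753 in opposite directions. The replicate block gave 6286 called genes, 6015 of them shared with the model without it, and changed no call of a named gene. It was not used because equally numbered arrays share only a number: their deviations correlated at 0.02 to 0.12 between parental and TGFB1 cells and at -0.13 to 0.22 between shNT and shCDH1 cells. With no normalization, 972 genes were called higher and 622 in opposite directions, and with a floor and log2 alone 639 and 560. Tested against a log2 difference of 0.5 with limma treat, 2056 genes were called (1199 higher, 857 lower, 131 with both effects called in opposite directions). An alternative chosen after seeing the data, without the 2 dimmest TGFB1 arrays, left 612 in opposite directions and 4315 called in all, with the lone TGFB1 array assumed to vary like the other groups. Of 92 further probes of the 56 named genes with several, 48 were called in the same direction, 44 were not called and 0 were called in the opposite direction. Probe choice, cross-reaction and signal near background limit single values.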

Other observations

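A separate fit covered the 17208 probes that carry no unique gene symbol. The difference of effects was called for 1374 of them, 679 higher and 695 lower. Their genes are not named here.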
